A study of Mus musculus with 6 samples.

Results

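Amino acid transporters were followed across 3 genotypes of mouse embryonic stem (ES) cells on Affymetrix arrays. The members are all probe sets with a single gene symbol in the Slc1a, Slc3a, Slc6a, Slc7a, Slc36a, Slc38a and Slc43a families, taken by name from the platform annotation without use of measured values. They comprised 125 of 45101 probe sets and 63 gene symbols, of which 111 probe sets and 60 symbols were bright enough to be tested (log2 intensity above 4 in at least 2 of 6 arrays). The symbols left out for dimness were Slc6a20a, Slc7a12 and Slc7a14. The symbols Slc36a1os, Slc6a19os and Slc7a6os fall under the name rule but are not transporter genes. Slc6a also holds carriers of neurotransmitters, creatine and taurine.

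The cells were homozygous for a knock-in labelled NcGFP (NcGFP ki/ki), heterozygous for it (NcGFP ki/+) or wild type (line W4), with 2 arrays per genotype from independent experiments according to the series design. NcGFP is not explained in the labels and is read here, from knowledge of the study, as N-cadherin fused to green fluorescent protein and inserted into the E-cadherin gene Cdh1. All groups were cultured in DMEM with 15% FCS, 0.1 mM NEAA (read as non-essential amino acids), 2 mM glutamine, 0.15 mM β-mercaptoethanol and 500 U of LIF, the cytokine that keeps ES cells undifferentiated. They were plated on diluted EMFI, read as embryonic fibroblast feeders, so feeder RNA may be present. The labels give no clone number and no age or passage of the lines.

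Cells take up amino acids through families of solute carriers with overlapping substrates. Slc7a1 to Slc7a4 form the cationic group, while the light chains Slc7a5 to Slc7a13 exchange amino acids as partners of the heavy chains Slc3a2 or Slc3a1. Slc1a4 and Slc1a5 exchange small neutral amino acids, the Slc38 carriers move glutamine and alanine with sodium, and several Slc36 and Slc38 members act on the lysosome. When amino acids run short, the kinase GCN2 and the transcription factor ATF4 raise transcription of several of these carriers together with synthetic enzymes and tRNA synthetases, a programme called the integrated stress response.

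Some properties of the whole data set touch every comparison. Cdh1, the targeted gene, had log2 intensities of 9.77 and 11.09 in ki/ki, 11.66 and 10.62 in ki/+, and 12.17 and 12.13 in W4, so it was lower in all knock-in arrays but did not order them by genotype. The controls for 18S ribosomal RNA read 11.36 and 11.12 (log2) in ki/ki and 11.57 and 11.54 in ki/+, against 7.22 and 7.12 in W4, and the part of this difference in any comparison with W4 was not tested. All 14 ES cell markers chosen were measured, with summed intensities of 54500 to 70860 per array, against 587 to 880 for 6 of 7 neural markers and 679 to 2117 for 9 primitive endoderm markers. Of 24 feeder fibroblast markers 23 were measured, and their summed intensity was 17919 and 56165 in ki/ki, 6769 and 12611 in ki/+, and 18757 and 21466 in W4. In such bulk RNA, fewer cells of a type and less RNA per cell cannot be told apart. Precision is set by the few arrays. With 2 against 2, a two-sided exact permutation test gives p = 0.333 at the lowest, so tests were made with limma over all 37950 kept probe sets.

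The span of the transporter genes was close to that of all genes. With each gene represented by its brightest probe set, 50 of 60 symbols (83.3%) spanned less than 1 log2 unit over the 6 arrays, against 82.2% of all genes, and the median span was 0.50, against 0.58. A mean log2 intensity under 6 was found for 29 of the 60 symbols, a larger share than the 33.1% of all genes. The 10 with a wider span were Slc38a5, Slc7a7, Slc36a4, Slc6a8, Slc7a2, Slc7a1, Slc38a10, Slc6a15, Slc1a1 and Slc1a6. The spread between replicate arrays differed by genotype, with a root mean square SD of 0.41 in ki/ki, 0.22 in ki/+ and 0.14 in W4 over these 60 symbols, close to the values over all 16706 genes (0.42, 0.25 and 0.11). The array of ki/ki replicate 1 was the highest of the 6 for 18 symbols (15.6% of all genes), and the lowest array was most often ki/ki replicate 2 (18 symbols, 30.2% of all genes) or ki/+ replicate 1 (16 symbols, 17.5% of all genes).

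**Figure D1:**
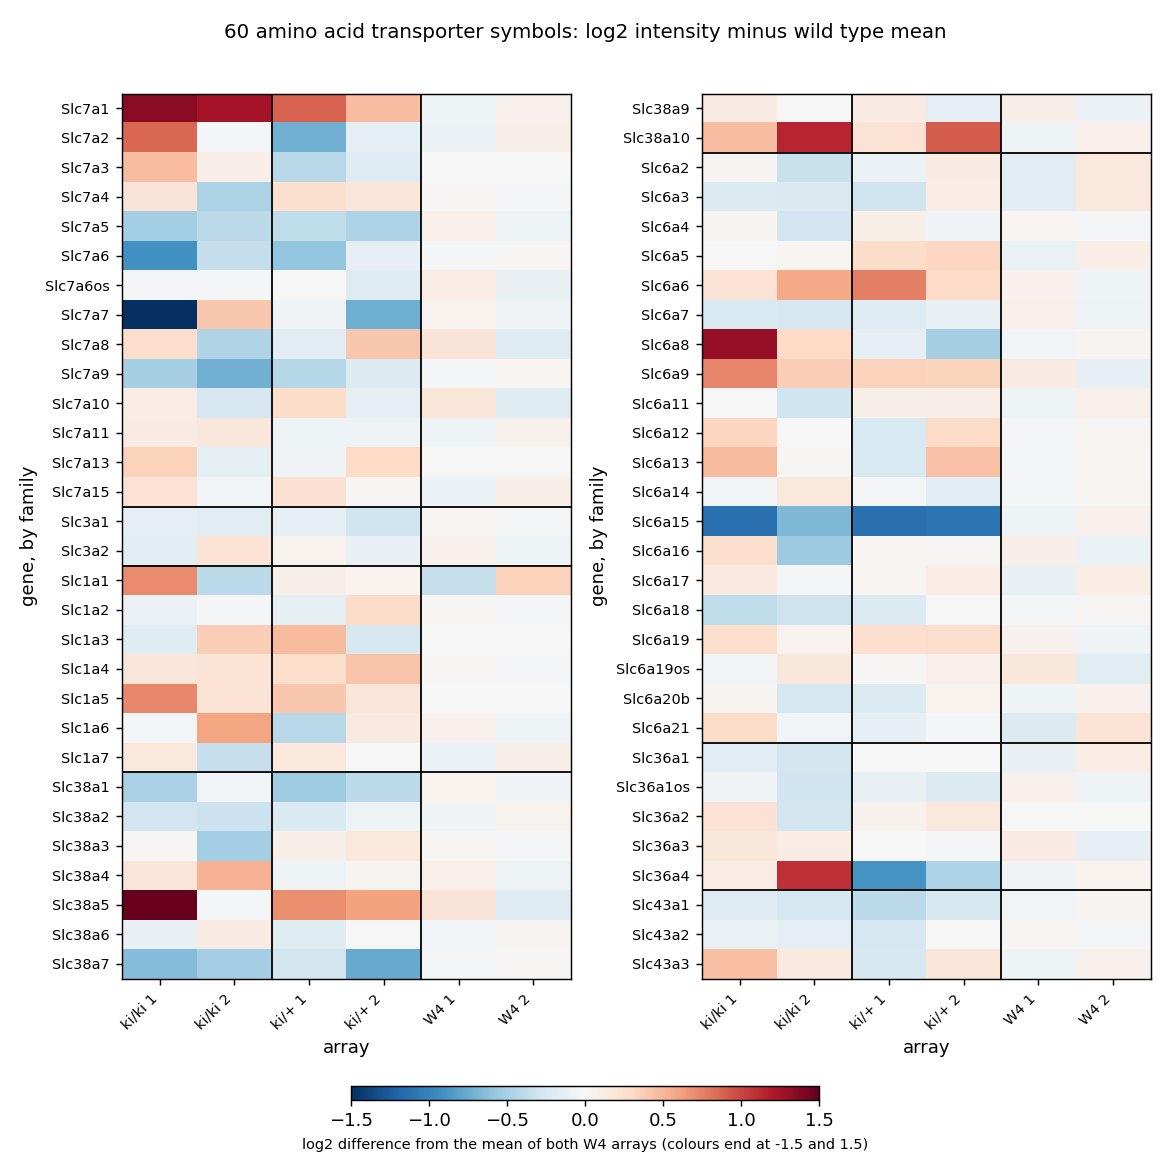
Log2 intensity of 60 amino acid transporter symbols (rows, by family, brightest probe set) on each array (columns) minus the mean of both W4 arrays. Slc7a1 is above W4 and Slc6a15 below it in all 4 knock-in arrays, while Slc38a5, Slc7a7 and Slc6a8 differ strongly between the 2 ki/ki arrays.

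Among the cationic amino acid carriers, Slc7a1, the main arginine and lysine transporter of most dividing cells, was higher in the knock-in cells. Its probe set 1454992_at had log2 intensities of 10.39 and 10.29 in ki/ki, 9.92 and 9.50 in ki/+, and 8.97 and 9.10 in W4. The genotypes did not overlap, with ki/ki highest and W4 lowest. Relative to W4, ki/ki differed by 1.30 (SE 0.18, limma adjusted p = 0.166), ki/+ by 0.67 (SE 0.18, limma adjusted p = 0.335), and ki/ki minus ki/+ was 0.63 (SE 0.18, limma adjusted p = 0.429), so none passed the threshold of 0.05.

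The neighbouring probe set 1454991_at ranked the genotypes in the same order, with log2 intensities of 10.29 and 9.93 in ki/ki, 9.78 and 9.21 in ki/+, and 8.99 and 8.86 in W4. The dim probe set 1421533_at lay between 4.15 and 4.61 on all arrays and did not separate the genotypes. The adjusted p of 1454992_at for ki/ki minus W4 depended on the arrays in the fit. It was 0.0338 without ki/ki replicate 1 and 0.0367 without ki/ki replicate 2, where the remaining ki/ki array is assumed to spread as ki/+ and W4 do, 0.358 with the ki/ki and W4 arrays alone, 0.9999 without W4 replicate 1 and 1 without W4 replicate 2.

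The other cationic carriers ordered the genotypes differently. Slc7a3, a close relative of Slc7a1, had log2 intensities of 11.93 and 11.56 in ki/ki, 11.05 and 11.27 in ki/+, and 11.48 and 11.46 in W4. It was above W4 in both ki/ki arrays and below it in both ki/+ arrays, and ki/ki minus ki/+ was 0.59 (SE 0.18, limma adjusted p = 0.429). Slc7a2, a carrier known from liver and macrophages, read 6.81 and 5.93 in ki/ki, 5.23 and 5.81 in ki/+, and 5.86 and 6.04 in W4 (log2, 1436555_at), so its ki/ki mean rested on replicate 1. Slc7a4 read 8.02 and 7.35 in ki/ki, 8.07 and 8.01 in ki/+, and 7.85 and 7.81 in W4 (1426068_at).

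Slc1a4 and Slc1a5, the exchangers of alanine, serine, cysteine and glutamine, were higher in all 4 knock-in arrays than in either W4 array. For Slc1a4 the probe set 1456003_a_at had log2 intensities of 7.38 and 7.49 in ki/ki, 7.42 and 7.40 in ki/+, and 6.73 and 6.56 in W4. The knock-in arrays overlapped each other (ki/ki minus ki/+ was 0.02) and all were above W4, by 0.79 in ki/ki (SE 0.15, limma adjusted p = 0.230) and by 0.77 in ki/+ (SE 0.15, limma adjusted p = 0.240). The other Slc1a4 probe sets, 1423550_at and 1423549_at, differed by 0.19 and 0.27 in ki/ki and by 0.34 and 0.37 in ki/+, in the same direction but smaller. Slc1a5 read 9.18 and 8.66 in ki/ki, 8.86 and 8.64 in ki/+, and 8.47 and 8.46 in W4 (1416629_at), with a difference of 0.46 for ki/ki and 0.29 for ki/+, while its second probe set gave 0.02 and 0.03.

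Promoters of these genes are printed because Slc7a1 and Slc1a4 gave the smallest p among members with higher signal in both knock-in genotypes, and Slc7a11 carries a well-known ATF4 element. They come from the RefSeq promoter table for GRCm38.p6, which held windows of 300 bases (250 before to 50 after an annotated start) for 46 of the 63 symbols. The motif searched was TGATGNAA on either strand, the core of the amino acid response element, and capitals mark its matches. It occurred in 5 of 67 windows of members and in 1304 of 32851 windows of all genes (7.46% and 3.97%), at Slc1a4, Slc7a11, Slc7a7 and Slc6a21. The 5 windows belong to these 4 symbols, since Slc7a7 has overlapping windows that share a match. The windows below lie at chr5:148399855-148400154 (minus strand), chr11:20332664-20332963 (minus strand) and chr3:50443564-50443863 (minus strand).
Slc7a1: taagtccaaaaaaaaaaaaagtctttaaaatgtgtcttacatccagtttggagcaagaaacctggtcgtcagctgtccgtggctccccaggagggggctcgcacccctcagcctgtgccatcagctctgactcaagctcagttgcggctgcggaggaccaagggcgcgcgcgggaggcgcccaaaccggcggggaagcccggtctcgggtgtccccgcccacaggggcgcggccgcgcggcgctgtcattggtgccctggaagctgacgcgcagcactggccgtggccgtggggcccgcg
Slc1a4: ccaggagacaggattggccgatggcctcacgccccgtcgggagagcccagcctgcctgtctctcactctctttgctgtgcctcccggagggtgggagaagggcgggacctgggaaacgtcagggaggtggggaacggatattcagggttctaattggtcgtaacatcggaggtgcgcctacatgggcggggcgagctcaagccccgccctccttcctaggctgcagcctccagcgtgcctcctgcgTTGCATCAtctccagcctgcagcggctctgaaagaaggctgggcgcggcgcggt
Slc7a11: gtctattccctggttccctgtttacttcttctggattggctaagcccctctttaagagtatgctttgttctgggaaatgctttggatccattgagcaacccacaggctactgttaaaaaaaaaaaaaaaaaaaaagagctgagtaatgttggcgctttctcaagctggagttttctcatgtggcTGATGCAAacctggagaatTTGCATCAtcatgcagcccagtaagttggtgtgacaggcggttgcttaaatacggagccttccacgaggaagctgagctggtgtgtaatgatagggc
The Slc1a4 window holds 1 match across the annotated start, and the Slc7a11 window holds 2 matches, from -66 to -59 and from -47 to -40 bases of the start. The Slc7a1 window, and another at a second Slc7a1 start, hold none, which says only that these letters are not in them. Slc7a11, the cystine carrier, was close to the detection limit here, with 4.24 and 4.28 in ki/ki, 4.04 and 4.04 in ki/+, and 4.06 and 4.18 in W4 (log2, 1420413_at).

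The glutamate carriers of the Slc1a family gave no shared direction. Slc1a3, a glial glutamate transporter, was highest in ki/+ replicate 1 by its probe set 1452031_at, with 5.90 and 5.57 in ki/ki, 6.47 and 5.64 in ki/+, and 5.50 and 5.20 in W4. Its difference for ki/+ minus W4 was 0.71 (SE 0.29, limma adjusted p = 0.474), and its brightest probe set gave 0.12. Slc1a1, the neuronal and epithelial glutamate carrier, was highest in ki/ki replicate 1 by all 3 of its probe sets. Slc1a2, Slc1a6 and Slc1a7 had differences from W4 between -0.13 and 0.29 by their brightest probe sets.

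Among the heteromeric exchangers, the light chains Slc7a5 and Slc7a6 were lower in the knock-in cells by their brightest probe sets. Slc7a5, which imports leucine and other large neutral amino acids, had log2 intensities of 9.82 and 9.93 in ki/ki, 9.94 and 9.86 in ki/+, and 10.40 and 10.24 in W4. All 4 knock-in arrays lay below both W4 arrays, by 0.45 for ki/ki (log2 difference -0.45, SE 0.15, limma adjusted p = 0.441) and 0.42 for ki/+ (-0.42, SE 0.15, limma adjusted p = 0.410). Its heavy chain Slc3a2 did not separate the genotypes, at 11.10 and 11.48 in ki/ki, 11.32 and 11.16 in ki/+, and 11.33 and 11.21 in W4. Slc7a6, another partner of Slc3a2, read 8.02 and 8.58 in ki/ki, 8.34 and 8.81 in ki/+, and 8.91 and 8.95 in W4 by 1433467_at, below W4 in all knock-in arrays, but the ki/+ array of replicate 2 was above W4 by its second probe set.

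Slc7a9, the light chain of renal cystine uptake, and its partner Slc3a1 were both dim and both below W4 in all knock-in arrays. Slc7a9 read 5.03 and 4.81 in ki/ki, 5.10 and 5.33 in ki/+, and 5.50 and 5.57 in W4, with -0.61 (SE 0.16, limma adjusted p = 0.343) for ki/ki minus W4. Slc3a1 differed by -0.15 in ki/ki and -0.23 in ki/+. Slc7a6os, which fell under the name rule only, gave -0.52 (SE 0.16, limma adjusted p = 0.406) for ki/ki minus W4 by the probe set 1440303_at and -0.02 by its brighter probe set.

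Slc7a7, which exports cationic amino acids, split each knock-in genotype. Its log2 intensities were 8.12 and 10.16 in ki/ki, 9.71 and 9.03 in ki/+, and 9.81 and 9.71 in W4 by 1417392_a_at, and its second probe set gave the same order within each genotype. Replicate 1 of ki/ki was the lowest array and replicate 2 the highest, so the mean difference of -0.62 between ki/ki and W4 describes neither of them. The remaining light chains Slc7a8, Slc7a10, Slc7a13 and Slc7a15 stayed between -0.09 and 0.13 from W4 in both knock-in genotypes.

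**Figure D2:**
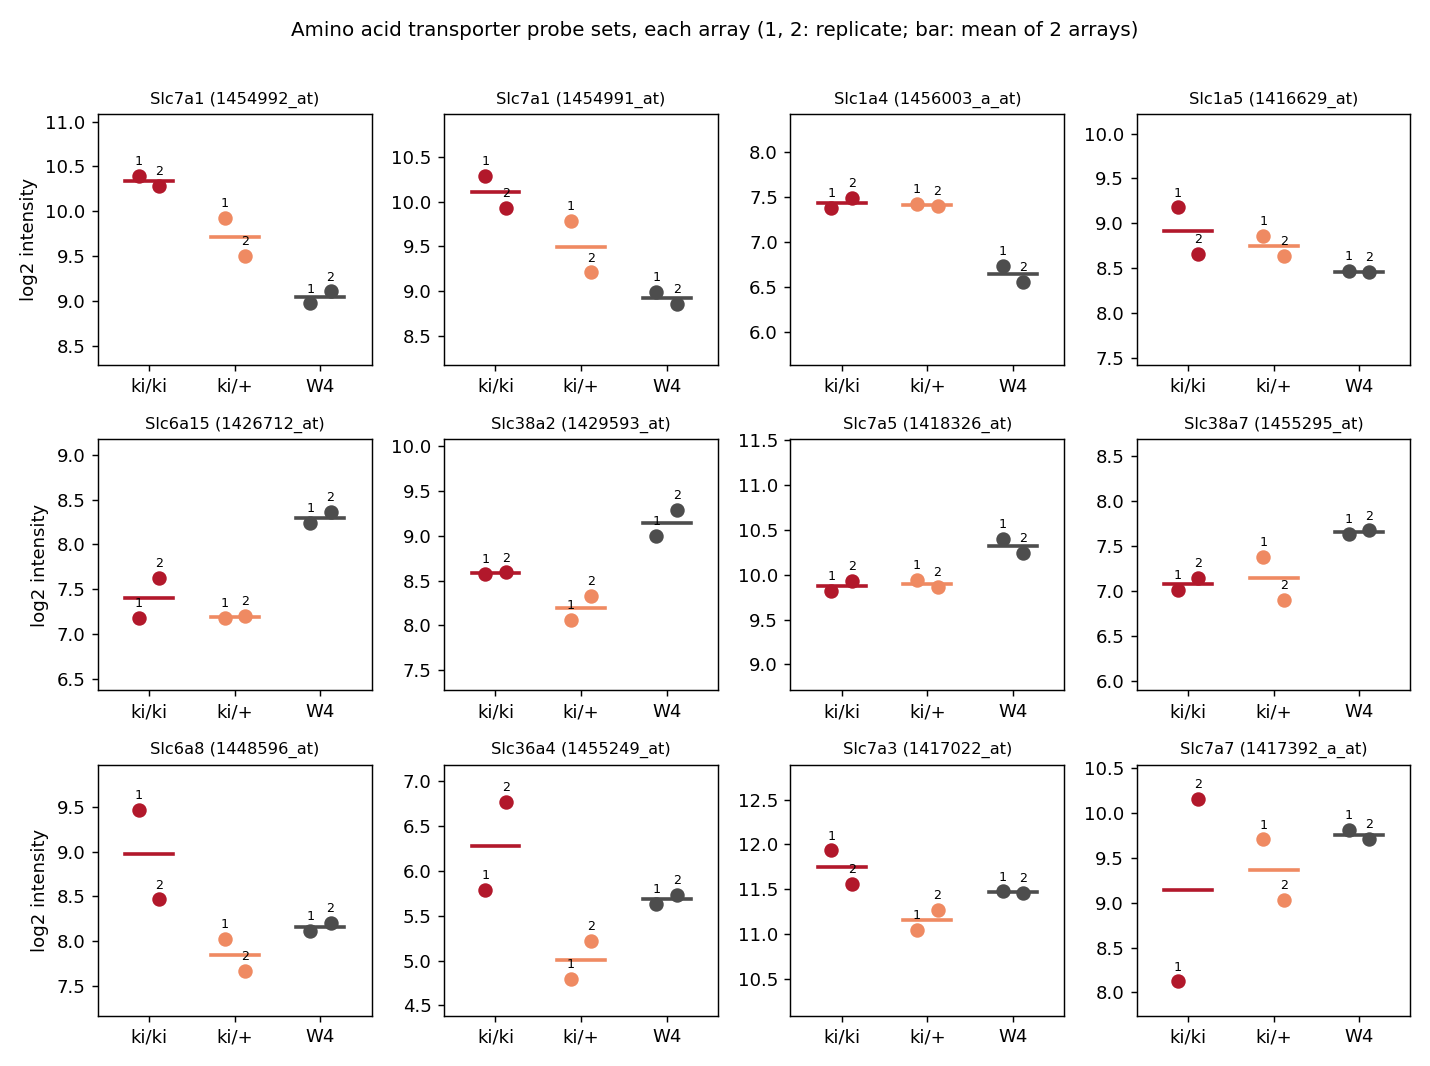
Log2 intensity on each array for 12 probe sets, with ki/ki, ki/+ and W4 from left to right, points for the arrays (numbered by replicate) and bars for the mean of 2 arrays. Each panel spans the same height in log2 units. Slc7a1 averages 10.34, 9.71 and 9.04, and Slc7a7 shows 8.12 and 10.16 in the 2 ki/ki arrays.

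The sodium-coupled Slc38 carriers included members on both sides of W4. Slc38a2, the carrier of alanine and glutamine that amino acid shortage is known to induce, was below W4 in all knock-in arrays by 2 of its 3 probe sets. By 1429593_at it read 8.57 and 8.59 in ki/ki, 8.06 and 8.33 in ki/+, and 9.001 and 9.29 in W4, with -0.56 (SE 0.17, limma adjusted p = 0.413) for ki/ki minus W4 and -0.95 (SE 0.17, limma adjusted p = 0.235) for ki/+ minus W4. Its brightest probe set, 1426722_at, read 11.47 and 11.43 in ki/ki, 11.53 and 11.67 in ki/+, and 11.69 and 11.80 in W4. The genotypes were apart there too, by only -0.30 for ki/ki and -0.14 for ki/+. The dim probe set 1429594_at overlapped W4 in ki/ki and lay below it in both ki/+ arrays, at 5.75 and 6.04 against 6.068 and 6.072.

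Slc38a7, a lysosomal glutamine exporter, had log2 intensities of 7.01 and 7.15 in ki/ki, 7.38 and 6.90 in ki/+, and 7.64 and 7.68 in W4. All knock-in arrays were below W4, by -0.58 (SE 0.19, limma adjusted p = 0.454) in ki/ki and -0.51 (SE 0.19, limma adjusted p = 0.439) in ki/+. Slc38a1 differed by -0.26 in ki/ki and -0.47 (SE 0.19, limma adjusted p = 0.468) in ki/+ by its brighter probe set, while the other gave 0.15 and -0.03. Slc38a9, the lysosomal arginine sensor upstream of the growth kinase mTORC1, was measured by 7 probe sets, all between 3.97 and 6.26 (log2) and with differences from W4 between -0.34 and 0.20.

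Slc38a5, a glutamine carrier, gave the widest span of all members and rested on 1 array. It read 7.04 and 4.81 in ki/ki, 5.54 and 5.44 in ki/+, and 5.02 and 4.64 in W4, so replicate 1 of ki/ki stood alone at the top while replicate 2 lay within the W4 range. Slc38a10 was above W4 in all knock-in arrays by its brightest probe set, 1456241_a_at, at 9.77 and 10.45 in ki/ki, 9.52 and 10.22 in ki/+, and 9.23 and 9.39 in W4. Its other 6 probe sets disagreed in direction: for the mean of both knock-in genotypes minus W4 the 7 ran from -0.32 to 0.68. Slc38a4, an imprinted gene, read 10.43 and 10.77 in ki/ki, 10.17 and 10.28 in ki/+, and 10.32 and 10.17 in W4 (1448889_at), and its second probe set put ki/+ rather than ki/ki on top.

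In the Slc6 family the clearest separation was that of Slc6a15, a carrier of branched-chain amino acids and proline known from neurons. It had log2 intensities of 7.18 and 7.63 in ki/ki, 7.18 and 7.20 in ki/+, and 8.24 and 8.36 in W4. All 4 knock-in arrays were below both W4 arrays, with little spread in ki/+. Against W4 the difference came to -0.89 in ki/ki (SE 0.19, limma adjusted p = 0.265) and to -1.11 in ki/+ (SE 0.19, limma adjusted p = 0.213). With the ki/+ and W4 arrays alone the comparison of ki/+ with W4 had a limma adjusted p of 0.0254.

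Slc6a8, the creatine transporter, separated the knock-in genotypes. By 1448596_at it read 9.47 and 8.47 in ki/ki, 8.02 and 7.67 in ki/+, and 8.12 and 8.21 in W4, and by 1417116_at it read 9.26 and 8.40 in ki/ki, 8.22 and 7.38 in ki/+, and 7.92 and 7.93 in W4. Both ki/ki arrays were above the rest in both probe sets, with replicate 1 the higher of the pair. The differences for ki/ki minus ki/+ were 1.12 (SE 0.32, limma adjusted p = 0.429) and 1.03 (SE 0.36, limma adjusted p = 0.443).

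Slc6a9, the glycine transporter GlyT1, and Slc6a6, the taurine transporter, were above W4 in all knock-in arrays by their brightest probe sets. Slc6a9 read 7.89 and 7.51 in ki/ki, 7.50 and 7.49 in ki/+, and 7.27 and 7.03 in W4, with 0.55 (SE 0.18, limma adjusted p = 0.444) for ki/ki minus W4. Slc6a6 read 10.00 and 10.35 in ki/ki, 10.53 and 10.06 in ki/+, and 9.85 and 9.71 in W4. Of the other 3 Slc6a6 probe sets, 2 overlapped W4 in both knock-in genotypes, and the second Slc6a9 probe set gave 0.04 for ki/ki minus W4. The monoamine carriers Slc6a2, Slc6a3 and Slc6a4 and the GABA carriers Slc6a11, Slc6a12 and Slc6a13 had differences from W4 between -0.21 and 0.25 by their brightest probe sets.

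Among the Slc36 family members, Slc36a4 had its highest and lowest values on the same arrays as the feeder marker list. It had log2 intensities of 5.79 and 6.77 in ki/ki, 4.798 and 5.21 in ki/+, and 5.63 and 5.73 in W4, with 1.28 (SE 0.32, limma adjusted p = 0.429) for ki/ki minus ki/+. The feeder marker list had median deviations from the gene means of 0.01 and 1.44 in ki/ki, -1.36 and -0.52 in ki/+, and 0.08 and 0.27 in W4, with ki/ki replicate 2 highest and ki/+ replicate 1 lowest in both. The same highest and lowest arrays were found for Slc1a6, Slc38a4 and Slc38a6 by their brightest probe sets, but not by the second probe sets of Slc38a4 and Slc38a6. Over all genes, 26.2% were highest on ki/ki replicate 2 and 17.5% were lowest on ki/+ replicate 1. The share of all genes with both was not counted, so these members are not shown to exceed it. On ki/ki replicate 1, Slc36a4 was above both W4 arrays, while the feeder median was below both. All 23 measured feeder markers were higher in both ki/ki arrays than in both ki/+ arrays (15.8% of all genes were so), and their part in the Slc36a4 difference was not tested. Slc36a1, the lysosomal proton-coupled carrier, differed from W4 by -0.23 in ki/ki and -0.01 in ki/+, and Slc43a1, a carrier of leucine and other large neutral amino acids, by -0.22 and -0.32. Slc43a2, a relative of Slc43a1, differed by -0.11 in ki/ki and -0.12 in ki/+, and Slc43a3 by 0.30 and -0.03.

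The remaining measured members are given by their brightest probe sets. Slc6a14, Slc6a16, Slc6a17, Slc6a19, Slc6a20b, Slc6a21, Slc36a2, Slc36a3 and Slc38a6 had differences between -0.14 and 0.25 in both knock-in genotypes. Slc6a18, a kidney relative of the neutral amino acid carriers, differed by -0.35 in ki/ki, and Slc6a5, the neuronal glycine transporter GlyT2, by 0.29 in ki/+. Slc6a5 was dim, and its other probe set, 1425992_at, gave -0.005 for ki/+ minus W4. Slc38a3, a glutamine carrier of liver and brain, read 6.72 and 6.20 in ki/ki, 6.79 and 6.87 in ki/+, and 6.72 and 6.69 in W4, so only ki/ki replicate 2 stood away from the rest. Its dimmer probe set 1446013_at went the other way, with 5.42 and 5.30 in ki/ki, 5.27 and 5.21 in ki/+, and 5.22 and 4.97 in W4.

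**Figure D3:**
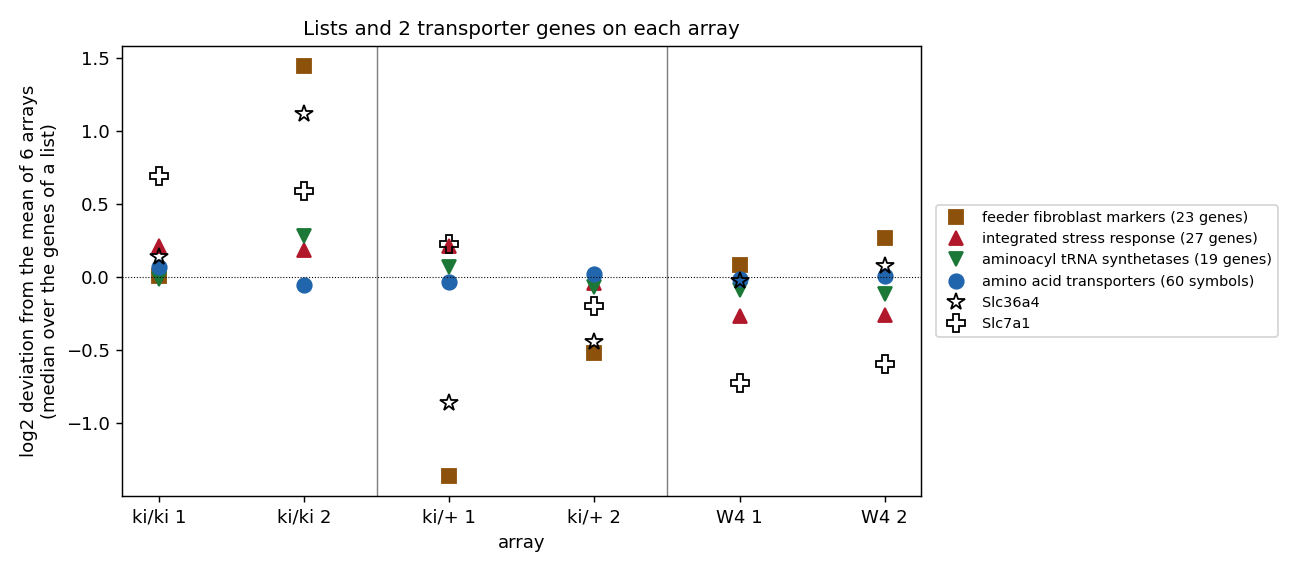
Median log2 deviation from the mean of 6 arrays for 4 gene lists, and the same deviation for single genes (open symbols), on each array from ki/ki to W4. Feeder markers range from -1.36 to 1.44 and Slc36a4 shares their highest and lowest arrays. Slc7a1 is lowest in W4, and the median over the transporters stays between -0.05 and 0.07.

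The comparison of ki/ki with W4 asked which transporters differ in cells homozygous for the knock-in. Limma called 0 of 111 member probe sets at an adjusted p of 0.05, and 0 of all 37950. At an unadjusted p below 0.05 it gave 7 member probe sets as higher and 7 as lower, where 4.04% and 4.9% of all probe sets were so. Of 60 symbols, 12 were above W4 and 14 below it in both ki/ki arrays (20% and 23.3%, against 17.3% and 21.2% of all genes), which is close to the background. Slc7a1 had the largest positive difference at 1.30 and Slc6a15 the largest negative one at -0.89, and the median over the members was 0.01, against -0.01 over all genes. Without ki/ki replicate 1, limma called 3 member probe sets at an adjusted p of 0.05, Slc7a1 at 1.25, Slc36a4 at 1.09 and Slc1a4 at 0.85, beside 4.73% of all probe sets. Without ki/ki replicate 2 it called 7, Slc38a5 at 2.21, Slc7a1 at 1.35, Slc6a8 at 1.31, Slc1a1 at 1.20, Slc6a15 at -1.12 and Slc7a7 at -1.64 and -1.68, beside 2.76%. Slc7a1 was the member called in both. The feeder marker sum of the ki/ki array left in the fit was 56165 without replicate 1 and 17919 without replicate 2, against 18757 and 21466 in W4. Over both ki/ki arrays the 23 feeder markers had a median difference of 0.67 from W4, with 22 positive, and their part in these calls was not tested.

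The comparison of ki/+ with W4 asked the same for a single knock-in copy, and uses the same W4 arrays as the comparison above. Limma called 0 member probe sets and 0 of all probe sets, with 5 members higher and 6 lower at an unadjusted p below 0.05 (4.52% and 5.97% of all probe sets). Of 60 symbols 13 were above and 18 below W4 in both ki/+ arrays (21.7% and 30%, against 29.5% and 26.4% of all genes), and the median over the members was -0.01, against 0.03 over all genes. Of 23 feeder markers 22 were below W4 in both ki/+ arrays, and their part in the lower values was not tested. With the arrays of ki/+ and W4 alone, limma called 3 member probe sets at an adjusted p of 0.05, Slc1a4 as higher by 0.77 and Slc38a2 and Slc6a15 as lower by -0.95 and -1.11, beside 3.38% of all probe sets. Leaving out either ki/ki array called the same 3, because the spread of ki/ki then plays no role.

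The comparison of ki/ki with ki/+ asked which transporters change between 1 and 2 knock-in copies. Limma called 0 member probe sets and 0 of all probe sets. At an unadjusted p below 0.05, 8 member probe sets were higher in ki/ki and 1 was lower, where 6.09% and 4.18% of all probe sets were so, and the 8 came from Slc36a4, Slc6a8, Slc7a1, Slc7a2 and Slc7a3. Of 60 symbols 9 were above and 9 below (15% each, against 15.8% and 21.1% of all genes). The 23 feeder markers were all higher in ki/ki in this contrast, and their part in these differences was not tested. Without ki/ki replicate 1 the difference was 1.77 for Slc36a4, -0.63 for Slc38a3 and -0.69 for Slc7a4, resting on ki/ki replicate 2 alone. By their brightest probe sets, Slc38a3 and Slc7a4 read 6.20 and 7.35 on that array, against 6.72 and 8.02 on ki/ki replicate 1. The dimmer Slc38a3 probe set 1446013_at was higher in ki/ki, at 5.42 and 5.30 against 5.27 and 5.21 in ki/+. The feeder marker sum was 56165 on ki/ki replicate 2 and 17919 on ki/ki replicate 1, against 6769 and 12611 in ki/+.

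With the mean of both knock-in genotypes set against W4, limma again called 0 member probe sets and 0 of all probe sets, with 6 members higher and 6 lower at an unadjusted p below 0.05 (4.33% and 5.36% of all). The members with the smallest p were Slc6a15 at -1.003 (SE 0.16, limma adjusted p = 0.152), Slc7a1 at 0.99 (SE 0.16, limma adjusted p = 0.156), Slc1a4 at 0.78 (SE 0.13, limma adjusted p = 0.160) and Slc38a2 at -0.76 (SE 0.15, limma adjusted p = 0.208). In all 4 knock-in arrays 6 of 60 symbols were above both W4 arrays (Slc7a1, Slc38a10, Slc6a6, Slc6a9, Slc1a5 and Slc1a4) and 9 were below (Slc6a15, Slc38a7, Slc7a6, Slc7a9, Slc7a5, Slc43a1, Slc38a2, Slc6a7 and Slc3a1). These are 10% and 15% of the members, against 9.67% and 9.61% of all genes. Without ki/ki replicate 1 limma called Slc1a4 and Slc6a15, beside 1.15% of all probe sets, and without ki/ki replicate 2 it called 7 member probe sets, of Slc38a5, Slc7a1, Slc1a4, Slc38a2, Slc7a7 and Slc6a15, beside 5.34%.

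**Figure D4:**
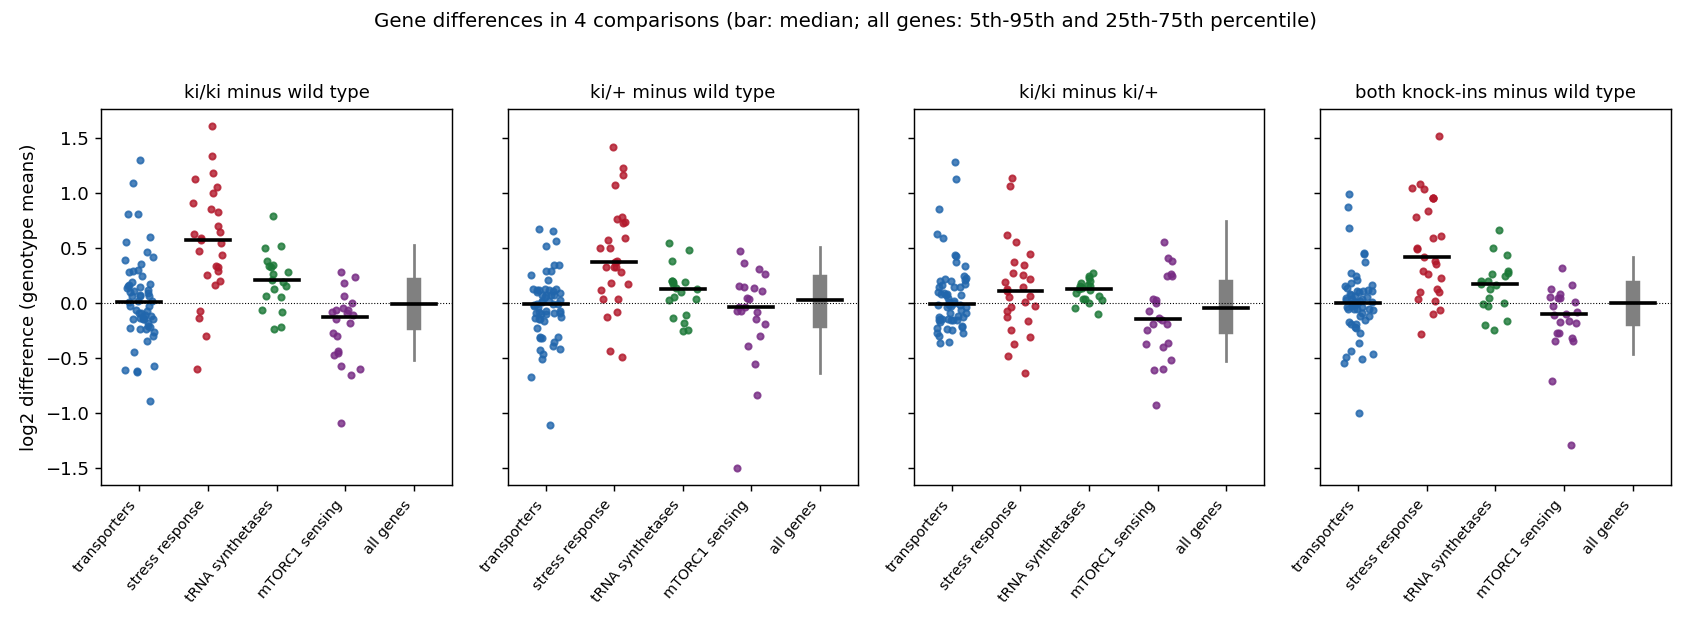
Log2 difference between genotype means (vertical axis) for each gene of 4 lists in 4 comparisons, with bars for the median and, for all 16706 genes, a box for the quartiles and a line for the outer percentiles named in the title. The transporters centre on 0 with single genes far out (Slc7a1 at 1.30 in ki/ki minus W4), while the stress response genes lie mostly above 0 against W4.

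Genes that respond to amino acid supply were counted beside the transporters, from lists chosen with earlier results of these data known. In limma's fit 0 genes of these lists had an adjusted p under 0.05 in any of the 4 comparisons. Of 27 measured integrated stress response genes, 23 were above W4 in both ki/ki arrays and 19 in both ki/+ arrays (85.2% and 70.4%, against 17.3% and 29.5% of all genes), with median differences of 0.57 and 0.37. At an unadjusted p below 0.05, limma gave 14 of them as higher and 0 as lower in ki/ki, against 699 and 837 of all 16706 genes, and 10 as higher and 1 as lower in ki/+, against 848 and 1006. Of the 27, 2 were below W4 in both ki/ki arrays (Ddit4 and Sesn2) and 3 in both ki/+ arrays (Atf5, Cebpb and Sesn2). These are 7.41% and 11.1%, against 21.2% and 26.4% of all genes. Asns, which makes asparagine, read 12.25 and 11.94 in ki/ki, 11.95 and 11.96 in ki/+, and 11.23 and 11.15 in W4. Psph, the last enzyme of serine synthesis, read 10.42 and 9.86 in ki/ki, 10.56 and 10.04 in ki/+, and 9.30 and 8.97 in W4. Atf4 itself was at 11.82 and 11.83 in ki/ki, 11.94 and 11.45 in ki/+, and 11.67 and 11.66 in W4.

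Of 19 measured cytosolic tRNA synthetase genes, 11 were above W4 in both ki/ki arrays and 9 in both ki/+ arrays. These are 57.9% and 47.4%, against 17.3% and 29.5% of all genes. Below W4 were 1 and 3 (5.26% and 15.8%, against 21.2% and 26.4% of all genes). The median differences were 0.21 and 0.12. The largest difference was that of the cysteinyl enzyme gene Cars, at 9.63 and 9.39 in ki/ki, 9.20 and 9.32 in ki/+, and 8.81 and 8.63 in W4. Of 22 measured genes that carry amino acid signals to mTORC1, 7 were below W4 in both ki/ki arrays and 6 in both ki/+ arrays (31.8% and 27.3%, against 21.2% and 26.4% of all genes), while 2 and 6 were above it (9.09% and 27.3%, against 17.3% and 29.5%). The largest difference there was that of Rragd, a Rag GTPase of the lysosomal surface, at 8.10 and 8.47 in ki/ki, 7.63 and 8.12 in ki/+, and 9.41 and 9.34 in W4, with -1.09 (SE 0.22, limma adjusted p = 0.261) in ki/ki cells and -1.498 (SE 0.22) for ki/+, where limma gave an adjusted p of 0.213. Sesn3, a stress-induced regulator of that pathway, read 7.76 and 8.24 in ki/ki, 7.44 and 8.03 in ki/+, and 8.57 and 8.58 in W4.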

How the data were processed

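RNA of 6 mouse ES cell cultures was measured on Affymetrix arrays. The authors deposited linear intensities, background-corrected and summarised with GCRMA and quantile-normalized after simpleaffy quality control, per the labels' design text, with no versions named there. That the scale is linear was read from the values. The 6 columns of another series in a deposited table were not used. Genes were taken from the platform annotation, and all 63 member symbols were found in RefSeq.

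Intensities were log2 transformed here. After leaving out 64 control probe sets, 37950 probe sets with log2 intensity above 4 in at least 2 arrays were fitted with limma 3.58.1 (R 4.3.3; lmFit and eBayes, genotype only, all 6 arrays) in 4 comparisons. P-values were two-sided, adjusted by Benjamini-Hochberg over all kept probe sets, and measure only the spread between these arrays. Each gene was represented by its brightest kept probe set, by mean over the arrays. The fit was tested on simulated data in which each probe set had the same spread in all genotypes. The unequal spread of the real arrays was not simulated. Members, lists and tests were chosen with earlier results of these data known. Named were members called in any comparison, the 10 member probe sets with the smallest p in each comparison, the 10 members with the highest mean and 29 listed carriers. Genes named beyond these were chosen after their values were seen. Alternatives tried were a stricter filter or none, another round of quantile normalization, a trended and robust prior, only the arrays compared, the replicate number as a block, averaging of the probe sets per gene, and each array left out.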

Additional observations from a re-analysis of the deposited data

How the results depend on the processing

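With all 6 arrays limma called 0 probe sets at an adjusted p of 0.05 in each of the 4 comparisons. Under a trended and robust prior it called 6 for both knock-in genotypes minus W4, of which 0 were transporters, and with only the ki/+ and W4 arrays it called 1282 for ki/+ minus W4, of which 3 were transporters. Further quantile normalization and no filter again gave 0 calls in each comparison, and the stricter filter moved no count of calls by over 1.5 times. Counts that start from 0 say little about stability. Differences of single transporter probe sets were recomputed only for the 10 with the smallest p in each comparison. None of these changed direction, which says little about the other members. Slc7a7 was not among them, and its ki/ki arrays lay on opposite sides of W4 (8.12 and 10.16 against 9.81 and 9.71 by 1417392_a_at). The median difference over the transporters lay close to 0 and changed sign: for ki/ki minus ki/+ it was -0.009 with all arrays, 0.0115 after further quantile normalization and 0.0046 with the stricter filter, and for both knock-in genotypes minus W4 it was -0.0023, 0.0076 after further quantile normalization and 0.0142 with probe sets averaged per gene. Leaving out 1 array gave 0 to 1796 probe sets for ki/ki minus W4, 0 to 1282 for ki/+ minus W4, 0 to 4996 for ki/ki minus ki/+ and 0 to 2027 for both knock-in genotypes minus W4, and among transporters 0 to 7, 0 to 3, 0 to 3 and 0 to 7 in the same order. Calls of transporters arose when a ki/ki array was left out, so that the ki/ki spread no longer entered the fit, and none when a ki/+ or W4 array was left out. The median difference over the transporters then ran from -0.0369 to 0.0756 for ki/ki minus W4, from -0.0121 to 0.0601 for ki/ki minus ki/+ and from -0.0581 to 0.0523 for both knock-in genotypes minus W4. With the replicate number as a block limma called 2 probe sets for both knock-in genotypes minus W4 and 0 in the other comparisons, with 0 transporters. Deviations of same-numbered arrays correlated at -0.04 (ki/ki with ki/+), 0.06 (ki/ki with W4) and 0.14 (ki/+ with W4), so the numbers are not shown to pair the arrays. With 2 arrays per genotype and probe sets close to the detection limit, such as that of Slc7a11, small differences were not detectable. Large ones were not called either: over all genes, ki/ki minus W4 ran from -3.07 to 3.71 with 0 calls in the fit of all arrays. The lack of calls therefore does not show that the transporters are unchanged.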
